A study of Mus musculus with 7 samples.

Results

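The 4 genes described here, Emp1, Emp2, Emp3 and Pmp22, encode the epithelial membrane proteins and peripheral myelin protein 22, and were followed in skin tumours in which BRAFV600E acted alone or together with SOX2. They were taken by name from the 55423 features of the count table. All 4 were found there, and all 4 were among the 24433 genes that reached 5 reads in some tumour and were tested. The family was picked because of its values in the comparison given below, so its differences between genotypes are a description and carry no test.

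The products of these genes cross the plasma membrane 4 times and belong to the PMP22, EMP and claudin superfamily. Proteins of this kind sit in cell contacts and membrane domains and take part in adhesion, in the handling of integrins and in the control of growth. PMP22 is best known as a protein of compact myelin made by Schwann cells, where its dose matters for peripheral nerve disease, and it was also described as a growth-arrest product. EMP1 is found at epithelial junctions, EMP2 works with integrins, focal adhesion kinase and caveolin, and EMP3 is expressed widely, including in blood cells.

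RNA was sequenced after depletion of ribosomal RNA from cutaneous squamous cell carcinomas of 2 mouse models. In Ivl:BRAFV600E mice a tamoxifen-dependent Cre under the involucrin promoter switches on the BRAF oncogene in IVL+ keratinocytes, and Ivl:BRAFV600E-SOX2LSL mice have in addition SOX2 and eGFP placed at the Rosa26 locus, silent until the same Cre acts. Both groups were on the C57BL/6J background and received topical tamoxifen at 7 to 10 weeks of age by the labels, and tumours were taken at clinical endpoint. The comparison asks how added SOX2 changes the tumour transcriptome, with 3 tumours per group used here. There was no group without the BRAF oncogene, so no level in normal skin was available. Ivl:BRAFV600E tumours 1 and 2 came from females and tumour 3 from a male, and both of those females also carried a tdRFP reporter allele. Ivl:BRAFV600E-SOX2LSL tumours 1 and 2 came from males and tumour 3 from a female, and whether these mice carried the tdRFP allele is not listed. The numbers are names only. Every Ivl:BRAFV600E-SOX2LSL tumour was collected sooner after induction than every Ivl:BRAFV600E tumour, so time since induction and genotype cannot be told apart. These are bulk samples, in which fewer cells of a type and less RNA per cell cannot be told apart either.

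Between 23565432 and 31152826 counts fell on genes per tumour. Sox2 was at 0.238 to 0.716 CPM (counts per 1 M counts of the library, after TMM scaling) in the Ivl:BRAFV600E tumours and at 155 to 182 CPM in the Ivl:BRAFV600E-SOX2LSL tumours, and the EGFP sequence had no counts in the first group and 3132 to 4957 counts in the second, as the labels say. Of all genes tested, 3.9% passed an adjusted p of 0.05 in edgeR's quasi-likelihood test with Benjamini-Hochberg adjustment (2.39% higher and 1.51% lower with SOX2), and 34.2% had groups that did not overlap. DESeq2 called 2098 genes higher and 1555 lower, and limma 1172 and 970, against 585 and 369 in edgeR. Counts by these 2 tools in the lists below stand beside those larger numbers. The share of all genes at an unadjusted p below 0.05 was not counted, so list counts at that threshold are a description only. Ivl:BRAFV600E-SOX2LSL tumour 1 stood apart in several lists below, with the lowest summed keratinocyte markers of all tumours.

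The bases just before the start sites of 3 of the genes are shown here because Emp1 and Emp3 differed most in fold between the genotypes and Emp2 was the one gene with a lower mean. They were read from the RefSeq promoter windows of GRCm38.p6, on the strand of the gene, and each shows the 250 bases upstream of an annotated start. The Emp1 window is chr6:135362681-135362930 on the plus strand, before the more upstream of its RefSeq starts. Its first and last bases also fall in exons of a longer annotated transcript. The Emp2 window is chr16:10313969-10314218 on the minus strand. The Emp3 window is chr7:45921427-45921676 on the minus strand, before the more upstream of its starts. Capitals mark matches to the words searched.
Emp1: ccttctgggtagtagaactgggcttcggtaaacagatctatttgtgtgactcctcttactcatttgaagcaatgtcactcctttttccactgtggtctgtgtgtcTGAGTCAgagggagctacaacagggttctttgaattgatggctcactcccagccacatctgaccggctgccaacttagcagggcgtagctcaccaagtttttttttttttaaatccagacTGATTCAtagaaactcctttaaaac
Emp2: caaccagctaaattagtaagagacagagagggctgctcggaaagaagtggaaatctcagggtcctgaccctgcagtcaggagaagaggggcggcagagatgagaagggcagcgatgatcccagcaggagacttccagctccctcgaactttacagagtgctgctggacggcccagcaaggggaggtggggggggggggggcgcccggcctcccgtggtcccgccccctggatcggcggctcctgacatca
Emp3: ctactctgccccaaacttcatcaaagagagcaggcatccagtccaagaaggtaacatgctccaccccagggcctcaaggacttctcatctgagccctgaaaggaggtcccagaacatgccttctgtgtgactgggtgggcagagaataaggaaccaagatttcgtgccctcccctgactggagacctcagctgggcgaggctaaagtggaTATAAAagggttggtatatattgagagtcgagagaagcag

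The words searched on both strands were the AP-1 word TGANTCA, the SOX words CATTGT and CTTTGT, and the TATA word TATAAA. The Emp1 window held TGAGTCA 145 bases and TGATTCA 25 bases before the start. The Emp3 window held TATAAA 40 bases before the start, and the Emp2 window held none of the words. A further Emp1 start, a further Emp3 start and 4 Pmp22 starts had none of them either. Of 32851 windows of the same length, 6.75% held the AP-1 word, 10.7% held CATTGT, 16.5% held CTTTGT and 12.4% held TATAAA. Such a match is a description of letters. The GC content was 44.4% in the Emp1 window, 52.0% in that of Emp3 and 62.8% in that of Emp2.

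Emp1 (ENSMUSG00000030208, chr6:135362545-135383173 on the plus strand, GRCm38), which codes for a junction-associated membrane protein of epithelia, was far higher in the tumours with SOX2. It stood at 182, 207 and 167 CPM in Ivl:BRAFV600E tumours 1 to 3 and at 1624, 1181 and 1305 CPM in Ivl:BRAFV600E-SOX2LSL tumours 1 to 3. The lowest tumour with SOX2 lay 974 CPM above the highest without it. The coefficient of variation was 11.2% in the first group and 16.7% in the second. The group means were 185 ± 20.7 and 1370 ± 229 CPM (SD, n = 3 each), a 7.40-fold difference. The log2 fold change was 2.89 (SE 0.19), the 1057th from the top among the tested genes. Both sexes were on each side of this gap, with the male without SOX2 at 167 CPM and the female with SOX2 at 1305 CPM.

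Emp2 (ENSMUSG00000022505, chr16:10281749-10313968 on the minus strand), the member that acts with integrins and caveolae, had the opposite sign. It was at 299, 251.2 and 251.3 CPM in the Ivl:BRAFV600E tumours and at 124, 197 and 243 CPM in the Ivl:BRAFV600E-SOX2LSL tumours. The groups did not overlap, but only 8.51 CPM separated them, less than the SD of either group. The means were 267 ± 27.5 and 188 ± 59.9 CPM (SD, n = 3 each), a ratio of 0.704. The log2 fold change was -0.51 (SE 0.24). Tumour 1 with SOX2, the one with the least Emp2, also had the most Emp1. Without that tumour the log2 fold change of Emp2 was -0.28, and that of Emp1 was 2.75.

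Emp3 (ENSMUSG00000040212, chr7:45918023-45921404 on the minus strand) was a low gene with little spread inside each group. It measured 5.18, 4.02 and 5.04 CPM without SOX2, from 152, 87 and 106 counts. With SOX2 it measured 9.96, 10.8 and 9.21 CPM, from 356, 333 and 255 counts. The groups did not overlap and lay 4.03 CPM apart, with means of 4.75 ± 0.634 and 9.99 ± 0.789 CPM (SD, n = 3 each). The log2 fold change was 1.07 (SE 0.19), slightly more than a doubling.

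Pmp22 (ENSMUSG00000018217, chr11:63128982-63159547 on the plus strand), the myelin protein of the family, had the largest SD of log2 CPM inside the groups, 0.601 over both. Its level was 12.1, 4.94 and 11.5 CPM in the Ivl:BRAFV600E tumours and 19.8, 17.4 and 10.8 CPM in the Ivl:BRAFV600E-SOX2LSL tumours. The groups overlapped, since tumour 3 with SOX2 lay below tumours 1 and 3 without it. The means were 9.49 ± 3.95 and 16.0 ± 4.66 CPM (SD, n = 3 each), with a log2 fold change of 0.75 (SE 0.38). The coefficient of variation was 41.6% without SOX2 and 29.1% with it, where that of Emp2 was 31.9%. Leaving out Ivl:BRAFV600E tumour 2, the lowest of all, brought the log2 fold change to 0.44.

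**Figure D1:**
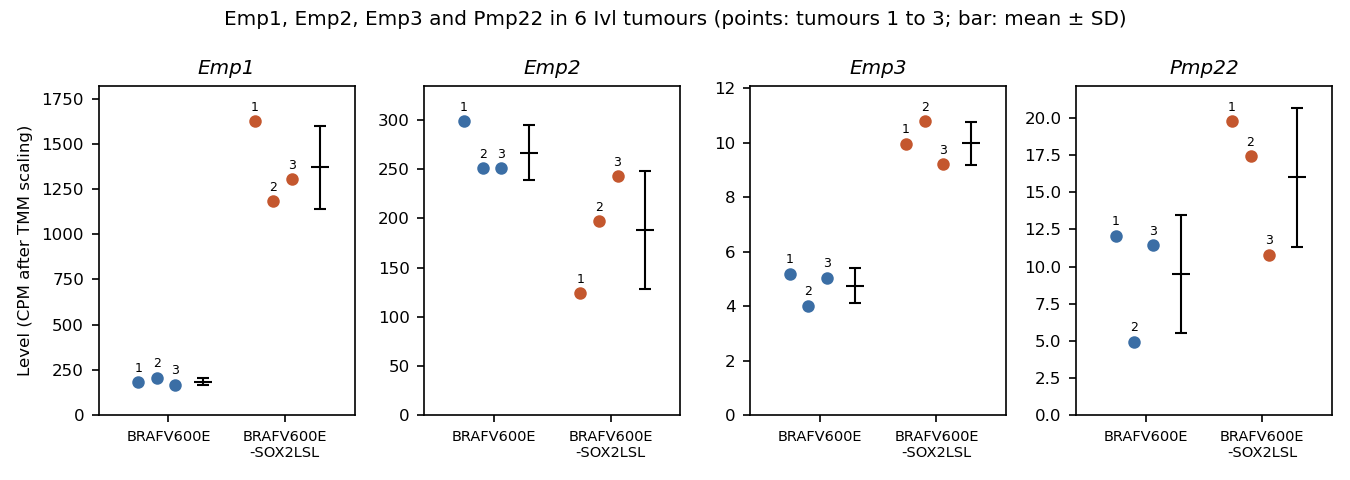
Level of each gene (y axis, CPM after TMM scaling, from 0) in the 3 Ivl:BRAFV600E tumours (blue) and the 3 Ivl:BRAFV600E-SOX2LSL tumours (orange), numbered 1 to 3, with the mean and SD of each group in black. The Emp1 groups lie 974 CPM apart, the Emp2 groups nearly touch, the Emp3 groups lie 4.03 CPM apart and the Pmp22 groups overlap.

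Thus 3 of the 4 genes had a higher mean with SOX2, and 3 of the 4 had tumour values without overlap between genotypes, beside 34.2% of all genes tested. Emp1 and Emp3, 2 of 4, were among the 3.9% of genes called, and Emp2 and Pmp22 were not. Emp1 stayed called in 6 of 6 fits that each left out 1 tumour, and Emp3 in 1 of 6, the fit without Ivl:BRAFV600E-SOX2LSL tumour 1. Emp1 also stayed called under 8 of 8 other settings and Emp3 under 7 of 8, being lost with sex as a covariate. Since the family was chosen on this comparison, nothing is read from these counts. The sign of each of the 4 differences stayed the same under all 14 alternative settings tried, from 2.75 to 2.98 for Emp1, -0.73 to -0.28 for Emp2, 0.96 to 1.14 for Emp3 and 0.44 to 0.97 for Pmp22 on the log2 scale.

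Levels of different genes were compared only after division by the summed exon length of each gene, 5935 bases for Emp1, 8644 for Emp2, 1071 for Emp3 and 2354 for Pmp22. In the Ivl:BRAFV600E tumours, Emp1 and Emp2 headed the family with 31.2 ± 3.48 and 30.9 ± 3.19 CPM per kb (SD, n = 3), which do not differ beyond their spread. Emp3 followed at 4.43 ± 0.592 and Pmp22 at 4.03 ± 1.68 CPM per kb, again within their spread of each other.

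The order was wider in the Ivl:BRAFV600E-SOX2LSL tumours. Emp1 reached 231 ± 38.5 CPM per kb, Emp2 21.7 ± 6.93, Emp3 9.32 ± 0.736 and Pmp22 6.80 ± 1.98 (SD, n = 3). Here neighbours in the order did not overlap between tumours, the closest being Emp3 at 8.60 to 10.1 and Pmp22 at 4.59 to 8.40 CPM per kb. The ratio of Emp1 to Emp2 per kb was 0.885, 1.20 and 0.965 in the tumours without SOX2 and 19.1, 8.73 and 7.83 in those with it, so Emp1 went from level with Emp2 to far above it in all 3.

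The sum of the 4 genes per kb was 70.6 ± 4.28 without SOX2 and 269 ± 33.8 with it (SD, n = 3), and Emp1 alone went from 31.2 to 231 of these. Emp1 made up 44.3 ± 5.02% of that sum without SOX2 and 85.6 ± 3.41% with it. The share of Emp2 went from 43.7 ± 2.21% to 8.32 ± 3.21%. Emp3 held 6.29 ± 0.851% and then 3.51 ± 0.614%, a smaller share although its own level was higher. Pmp22 held 5.71 ± 2.35% and then 2.53 ± 0.694%. The order of Emp1 and Emp2 without SOX2 depended on the length used, since with the longest protein-coding transcript of each gene Emp2 held 50.9% and Emp1 41.8%, while with SOX2 Emp1 held 85.8% on that scale too.

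**Figure D2:**
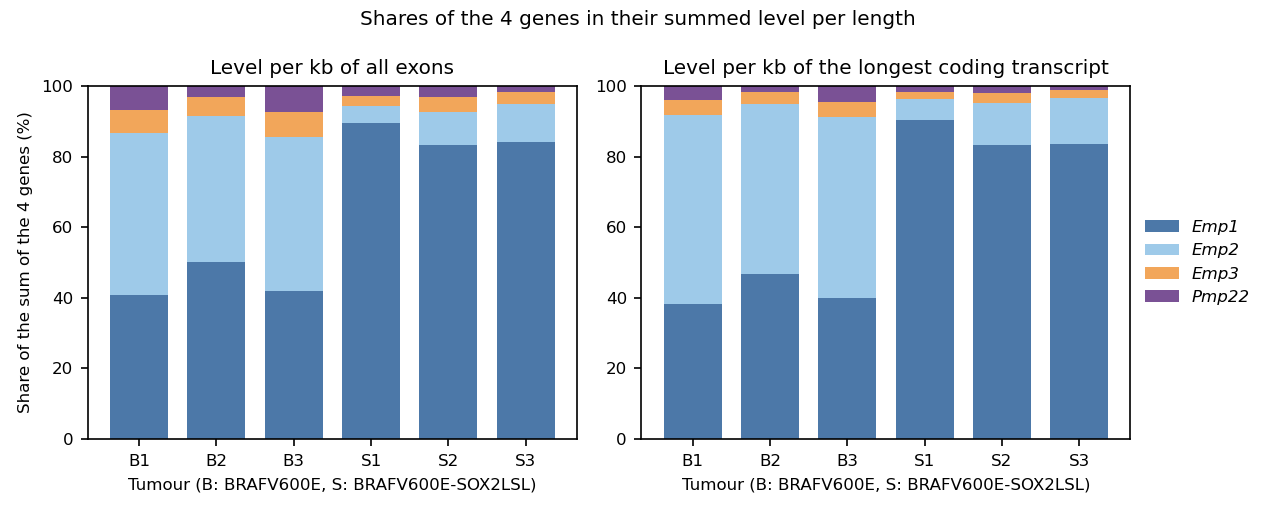
Share of each gene (y axis, percent) in the summed level per kb of Emp1, Emp2, Emp3 and Pmp22, by tumour (B1 to B3, Ivl:BRAFV600E; S1 to S3, Ivl:BRAFV600E-SOX2LSL), per kb of all exons on the left and of the longest coding transcript on the right. On the left Emp1 fills at least 83.2% of each bar with SOX2, and less of each bar without it, 40.7% in B1.

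The 4 genes were counted apart from each other and from other genes as far as their sequence allows. No exon of any of them overlapped an exon of another gene on either strand. Their coding sequences have 160 codons for Emp1, 172 for Emp2, 163 for Emp3 and 160 for Pmp22. Emp1 and Emp2 were the closest pair, with 60.9% identical bases in a global alignment, and the other pairs shared 54.2 to 56.9%. Their transcripts had 0 stretches of 30 bases in common.

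The genes that follow each member most closely over the 6 tumours were found by the root mean square difference of log2 CPM centred on each gene, among 14429 genes with a mean of at least 1 CPM. This is a ranking without a test, and the difference between genotypes weighs heavily in it. Emp1 was most like Hmcn2 (0.178), which codes for hemicentin-2, an extracellular matrix protein, then 9330182L06Rik (0.266), Pde3b (0.277), a phosphodiesterase, Pthlh (0.279), the parathyroid hormone-like hormone, and Cystm1 (0.301). The median over all genes compared with Emp1 was 1.46. Hmcn2 was at 1.14 to 1.43 CPM without SOX2 and at 7.45 to 14.7 CPM with it, and its highest tumour was also tumour 1. Pthlh was at 9.50 to 12.0 and 57.1 to 131 CPM.

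Emp2 was most like Desi1 (0.0571), Cpne5 (0.0617) and Gstm2 (0.0629), the last a glutathione transferase, against a median of 0.503. As with Emp2, all of these were lowest in tumour 1 with SOX2. Emp3 was most like Cyp39a1 (0.0797), a hydroxylase of oxysterols, Mctp2 (0.0818) and Sept9 (0.0939), a septin of the cytoskeleton, against a median of 0.620. Pmp22 was most like Nhsl2 (0.148), Insyn1 (0.150) and Fap (0.157), the fibroblast activation protein, against a median of 0.700, and all of these were lowest in Ivl:BRAFV600E tumour 2. The same genes were named with a prior count of 0.5 in place of 2. Among the members themselves, Emp3 and Pmp22 were the closest pair (0.393), and Emp1 and Emp2 the farthest (1.77).

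**Figure D3:**
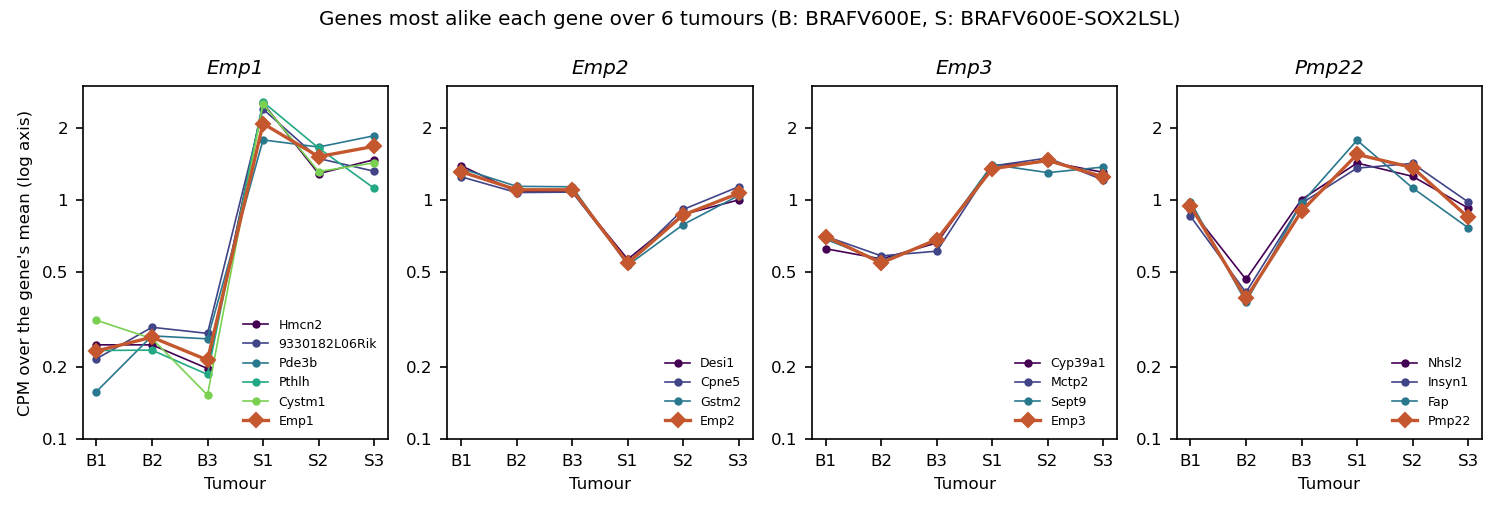
CPM of each gene and of the genes most like it, divided by the gene's mean over the 6 tumours (y axis, log scale), by tumour (B1 to B3, Ivl:BRAFV600E; S1 to S3, Ivl:BRAFV600E-SOX2LSL; the lines only join points of 1 gene). The Emp1 group steps up between the genotypes, the Emp2 group is lowest in S1, the Emp3 group is flat within each genotype and the Pmp22 group is lowest in B2.

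On the chromosome, up to 3 tested genes on each side of every member within 250 kb were examined, which gave 16 neighbours. Of these, 5 reached 5 reads only in tumours with SOX2 (Gm36640, Atf7ip2, Rpl39l, Ccdc114 and Kcnj11), and of the other 11, which did so in both genotypes, 1 passed the test, beside 3.9% of all genes. The 3 around Emp1 all lay on the side of its start. The gene that passed, the lincRNA gene Gm44275 (chr6:135312155-135319561, minus strand), 43.0 kb away, was at 0.285 to 0.508 CPM without SOX2 and at 30.4 to 50.4 CPM with it, a log2 fold change of 6.58 (SE 0.33, edgeR adjusted p = 0.00115). Gm36640, which overlaps Gm44275 on the other strand so that their reads may be mixed, had at most 3 counts per tumour without SOX2 and 16 to 54 with it, and its counts are given as a description. With 1 tumour left out at a time the adjusted p of Gm44275 in edgeR was 0.00111 to 0.0173. The nearest, the pseudogene Dynlt1-ps1 at 12.8 kb, did not pass, at 9.57 ± 1.72 and 10.7 ± 2.11 CPM (SD, n = 3).

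Around Emp3, Kcnj11, a pore subunit of the ATP-sensitive potassium channel that muscle also expresses, lay 173 kb away, with 1 count in all without SOX2 and 187 with it. The ratio of these counts, scaled by library size, was 143, with a 95% interval from counting alone of 25.3 to 5670. Tmem143, which begins before Emp3 and ends 0.610 kb from it, was at 2.49 ± 0.360 and 4.45 ± 0.849 CPM (SD, n = 3). It did not pass in edgeR (adjusted p = 0.106), and among the 8 other settings it passed in DESeq2 only. None of the 5 neighbours of Emp2 or the 2 of Pmp22 passed in edgeR, DESeq2 or limma, and at an unadjusted p below 0.05 in edgeR the count was 1 for Emp2, the lincRNA gene Gm1600, and 0 for Pmp22.

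**Figure D4:**
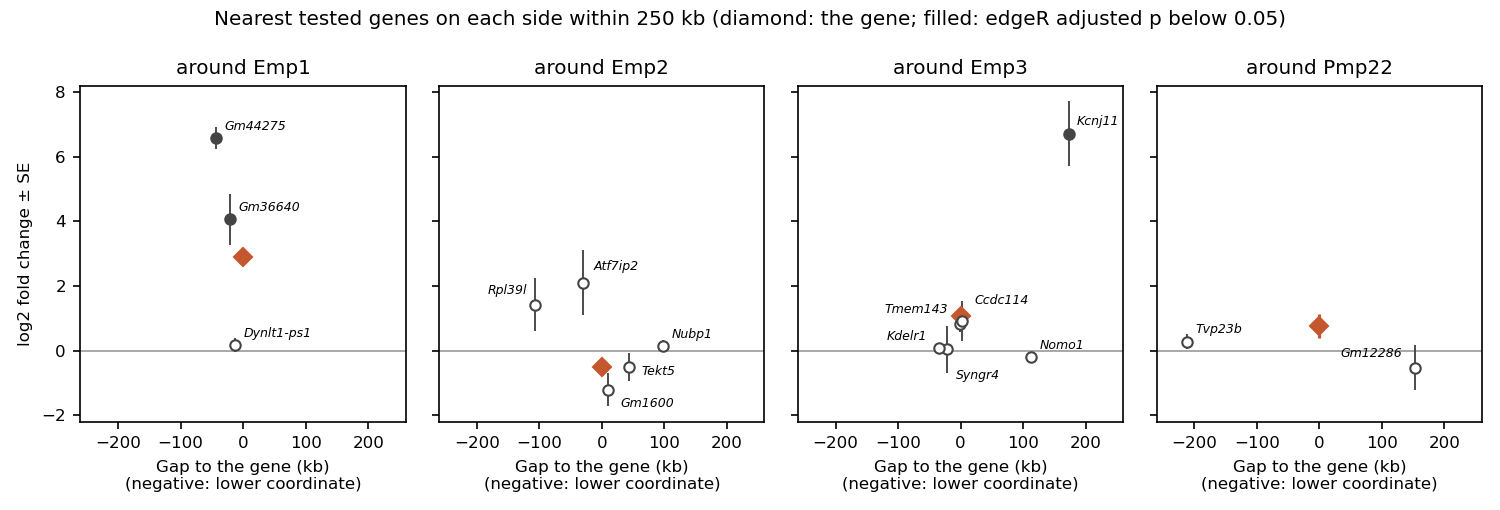
log2 fold change with its SE (y axis, Ivl:BRAFV600E-SOX2LSL minus Ivl:BRAFV600E) of the nearest tested genes against their gap to each member (x axis, kb, negative towards lower coordinates); the diamond is the member and filled points had an edgeR adjusted p below 0.05. Filled points are Gm44275 and Gm36640 near Emp1 and Kcnj11 at 173 kb from Emp3, of which Gm36640 and Kcnj11 reached 5 reads only in tumours with SOX2.

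Of 20 other genes of the PMP22 and claudin superfamily, claudins left aside, 12 were tested. Of these, 6 reached the 5 reads needed for testing only in tumours with SOX2 (Nkg7, Gsg1, Gsg1l, Tmem182, Tmem178 and Cacng6), so the filter itself favoured a higher level with SOX2 and nothing is read from how many of the 12 were called (2.39% of all genes tested were called higher). Over the 12, 0 were lower in edgeR, 1 in DESeq2, 0 in limma and 2 at an unadjusted p below 0.05. Among these 6 the widest difference was that of Tmem182, a membrane protein known from muscle and fat, with 1 count in all without SOX2 and 316 with it. The ratio of these counts was 241, with a 95% counting interval of 43.0 to 9561. Cacng1, a calcium channel subunit of skeletal muscle named after its values were seen, was at 0.167 ± 0.146 and 2.26 ± 1.85 CPM (SD, n = 3, edgeR adjusted p = 0.0584). Beside these stand the 11 tested skeletal-muscle markers, of which 9 were higher with SOX2 in edgeR (beside 2.39% of all genes tested; 10 in DESeq2 and 3 in limma), 7 of them among the 7 that reached 5 reads in both genotypes, with a summed level of 2.39 to 4.85 CPM without SOX2 and 260 to 1105 CPM with it, and Myh4 at 0 in all tumours without it. With 1 tumour left out the edgeR count ran from 0 to 10, with 0, 1 and 4 called without Ivl:BRAFV600E tumours 1, 2 and 3, and 5 without Ivl:BRAFV600E-SOX2LSL tumour 2. The part of these markers in these superfamily values was not tested.

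The most abundant of these relatives went the other way in value. Perp, a desmosomal protein induced by p53 and p63, was at 4235, 6220 and 4886 CPM without SOX2 and at 1042, 3139 and 2191 CPM with it. The groups did not overlap, and the log2 fold change of -1.27 (SE 0.40) did not pass (edgeR adjusted p = 0.111). Cldnd1 was at 136 ± 18.9 and 90.9 ± 20.7 CPM (SD, n = 3, edgeR adjusted p = 0.134).

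The second list held 18 genes that work with EMP proteins or share their membrane domains, among them integrins, focal adhesion kinase, caveolins and tetraspanins. In edgeR 3 were higher with SOX2 and 0 lower (median log2 fold change 0.59, against 0.043 over all genes tested), beside 2.39% of all genes called higher. DESeq2 called 9 higher and limma 7, beside 2098 and 1172 of all genes, and the count lower was 0 in both and at an unadjusted p below 0.05. Ocln, the tight junction protein occludin, was at 13.4, 13.1 and 16.0 CPM without SOX2 and 26.9, 25.7 and 25.5 CPM with it (log2 fold change 0.88, SE 0.14, edgeR adjusted p = 0.0277). Cd151, a tetraspanin of laminin-binding integrins, went from 42.9 ± 2.40 to 79.2 ± 12.4 CPM (SD, n = 3, edgeR adjusted p = 0.0287). Itgb3, the integrin beta 3 subunit, went from 8.24 ± 0.883 to 15.4 ± 2.43 CPM (SD, n = 3, edgeR adjusted p = 0.0460).

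All 3 calls were lost in each leave-one-out fit but the one without Ivl:BRAFV600E-SOX2LSL tumour 1, in which 8 genes of this list were called, and with sex as a covariate. The edgeR adjusted p over those fits was 0.0218 to 0.133 for Ocln, 0.0118 to 0.130 for Cd151 and 0.0454 to 0.175 for Itgb3. Of the 8 other settings, Itgb3 was called under 6, and Ocln and Cd151 under 7 each. Exons of Cd151 and Itgb4 overlap genes on the other strand, so their counts may hold reads of those. The most abundant members of this list, the hemidesmosome integrins, had groups that did not overlap but did not pass. Itga6 was at 513 ± 52.7 and 818 ± 116 CPM (SD, n = 3, edgeR adjusted p = 0.0702) and Itgb4 at 376 ± 28.1 and 726 ± 244 CPM (SD, n = 3, edgeR adjusted p = 0.0721). Cav1, caveolin-1 and a named partner of EMP2, was at 67.9 ± 2.17 and 110 ± 19.7 CPM (SD, n = 3, edgeR adjusted p = 0.0516), and Itgb1 was at 194 to 202 CPM without SOX2 and at 1142, 373 and 321 CPM with it (edgeR adjusted p = 0.0956), these 2 named after their values were seen.

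The third list set Pmp22 beside 24 genes of myelin and Schwann cells. In edgeR 1 was higher with SOX2, beside 2.39% of all genes tested, and 0 lower (22 of the 24 reached 5 reads in both genotypes). DESeq2 called 4 higher and 1 lower, limma 1 higher and 0 lower, and at an unadjusted p below 0.05 in edgeR 6 were higher and 1 lower. The gene called in edgeR was Mal, a proteolipid of myelin that epithelia also use for apical transport, at 98.4 ± 17.3 CPM without SOX2 and 378 ± 145 CPM with it (SD, n = 3, edgeR adjusted p = 0.0270). With 1 tumour left out its adjusted p in edgeR was 0.00324 to 0.129, below 0.05 only without Ivl:BRAFV600E-SOX2LSL tumour 1. The call of Mal was also lost with sex as a covariate. The other abundant gene of the list, the receptor Erbb3, was at 227 ± 11.4 and 222 ± 73.3 CPM (SD, n = 3). Of the genes that mark the Schwann cell, the transcription factor Sox10 was at 0.185 to 1.71 CPM without SOX2 and 0.560 to 0.648 CPM with it, and S100b was at 0.370 to 0.955 and 0.112 to 0.253 CPM. Neither exceeded 1.71 CPM in any tumour, and the highest tumour for each was one without SOX2. Neither stands for the whole list, in which 14 of 24 log2 fold changes were above 0. Egr2, named after its values were seen, was at 7.77 ± 4.58 and 16.8 ± 2.13 CPM (SD, n = 3). Pou3f1 and Ncmap, named likewise, were at 15.9 ± 11.8 and 44.1 ± 16.5 CPM and at 0.643 ± 0.152 and 1.47 ± 0.0855 CPM. The groups of Egr2, Pou3f1 and Ncmap did not overlap, but none passed (edgeR adjusted p = 0.175, 0.162 and 0.0847).

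Ivl:BRAFV600E tumour 2 had the least Pmp22 of all 6 tumours, and it also had the least of the fibroblast gene Dcn (3.19 CPM, against 49.6 to 145 CPM in the others) and the lowest summed fibroblast markers (853 CPM). The 12 fibroblast markers summed to 853 to 5304 CPM without SOX2 and 4190 to 8884 CPM with it. None of the 12 passed in edgeR, beside 3.9% of all genes, and 4 were higher and 0 lower at an unadjusted p below 0.05. DESeq2 called 3 higher and limma 2, beside 2098 and 1172 of all genes. The 12 myeloid markers summed to 225 to 723 and 802 to 1260 CPM, and S100a9 alone made up 63.3 to 76.3% of the sum without SOX2 and 21.7 to 78.6% with it. Without S100a9, left out after its values were seen, the sums were 82.5 to 171 CPM without SOX2 and 629, 310 and 209 CPM in tumours 1, 2 and 3 with it. Ptprc and Csf1r were called higher in edgeR, 2 of 12 beside 2.39% of all genes, with 9 higher in DESeq2, 4 higher in limma and 0 lower in any of the 3 tools. Both genes passed in the fit without Ivl:BRAFV600E-SOX2LSL tumour 1 and in no other fit with 1 tumour left out (edgeR adjusted p 0.0443 to 0.175 for Ptprc and 0.0257 to 0.184 for Csf1r), and 0 of the list were called with sex as a covariate. Of the 8 other settings, Ptprc was called under 5 and Csf1r under 7. The part of fibroblasts and myeloid cells in Emp3 and Pmp22 was not tested.

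The last list held 12 genes of growth arrest, since Pmp22 is also known as Gas3. In edgeR 0 were higher and 2 lower with SOX2 (median log2 fold change -0.26, against 0.043 over all genes tested), beside 1.51% of all genes called lower. DESeq2 called 1 higher and 3 lower, limma 0 higher and 3 lower, and 1 was higher and 4 lower at an unadjusted p below 0.05 in edgeR. Gas7 was at 206, 129 and 131 CPM without SOX2 and 44.6, 60.8 and 74.3 CPM with it (log2 fold change -1.37, SE 0.26, edgeR adjusted p = 0.0382). Btg1, an antiproliferative gene, went from 406 ± 61.9 to 217 ± 28.1 CPM (SD, n = 3, edgeR adjusted p = 0.0391). With 1 tumour left out both passed only without Ivl:BRAFV600E-SOX2LSL tumour 1, with an edgeR adjusted p of 0.0310 to 0.131 for Gas7, which overlaps an exon on the other strand, and 0.0319 to 0.162 for Btg1. Neither passed with sex as a covariate. The cell cycle inhibitor Cdkn1a was at 220 ± 37.8 and 181 ± 7.08 CPM (SD, n = 3, edgeR adjusted p = 0.280). The widest difference of the list was that of Cdkn1c, a cell cycle inhibitor named after its values were seen, at 0.477, 1.29 and 1.28 CPM without SOX2 and 2.21, 20.2 and 3.97 CPM with it. The groups did not overlap, and the log2 fold change of 3.12 (SE 0.89) did not pass (edgeR adjusted p = 0.0921).

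**Figure D5:**
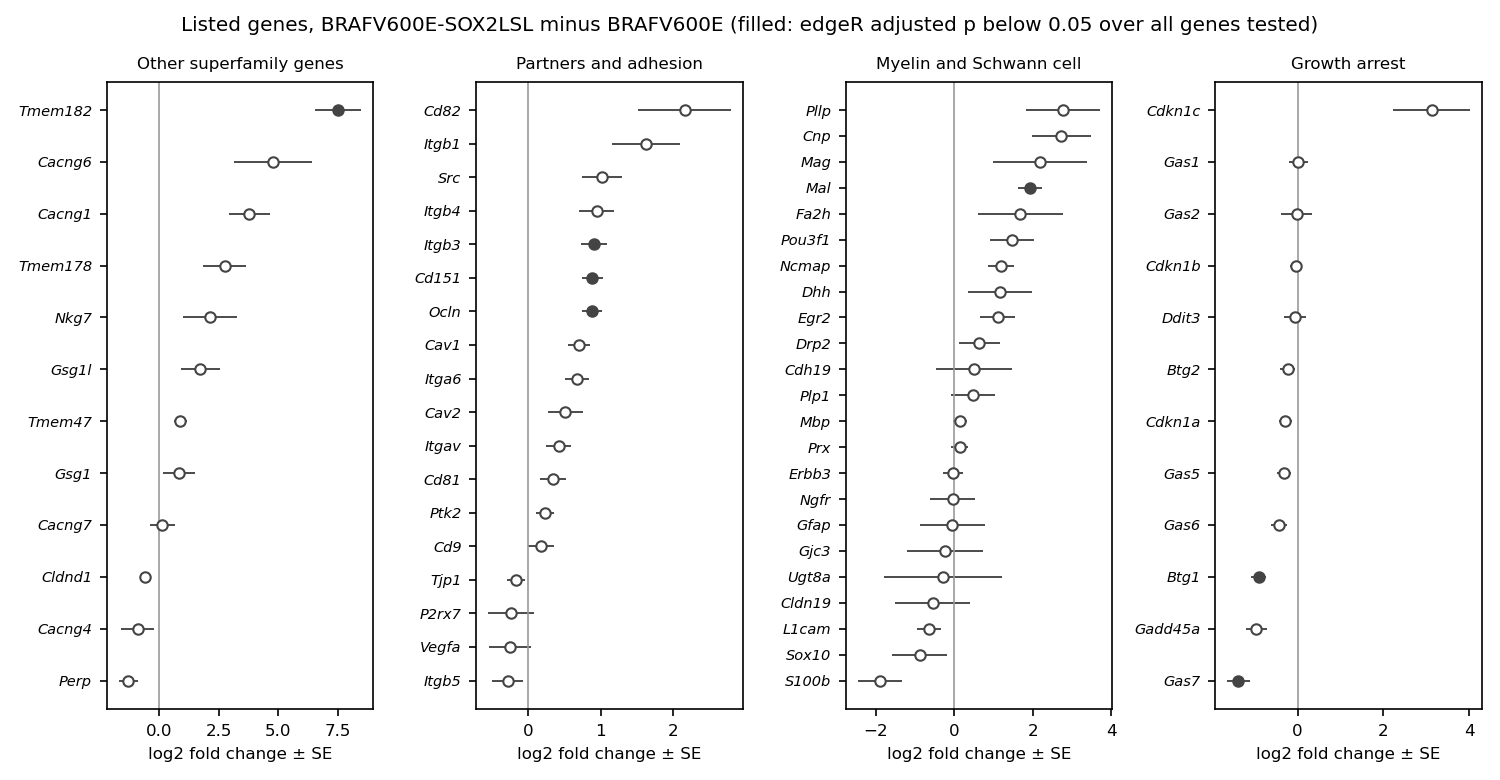
log2 fold change with its SE (x axis, Ivl:BRAFV600E-SOX2LSL minus Ivl:BRAFV600E) of tested genes of each list (y axis, sorted; 1 myelin gene is not shown), with filled points for an edgeR adjusted p below 0.05. Tmem182, which reached 5 reads only in tumours with SOX2, then Itgb3, Ocln and Cd151, then Mal lie to the right of 0 and Gas7 and Btg1 to the left among the filled points.

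The tumours had keratinocyte RNA throughout, with the defining gene Trp63 at 261 to 297 CPM without SOX2 and 281 to 321 CPM with it. The 14 keratinocyte markers summed to 95582 to 142626 CPM without SOX2 and to 20796 to 59249 CPM with it, and 7 of the 14 log2 fold changes were above 0. The differentiation keratins Krt1 and Krt10 made up 57.3 to 63.9% of the sum without SOX2 and 6.90 to 37.2% with it. When these were left out, after their values were seen, the sums overlapped between the genotypes, at 34518 to 60869 and 19361 to 43381 CPM. Of the 14, 1, Epcam, was called higher in edgeR, beside 2.39% of all genes, and 0 lower, beside 1.51%. DESeq2 called 3 higher and 4 lower, limma 2 higher and 1 lower, and 5 were higher and 5 lower at an unadjusted p below 0.05 in edgeR. The edgeR adjusted p of Epcam ran from 0.0160 to 0.119 with 1 tumour left out and was below 0.05 in the fit without Ivl:BRAFV600E-SOX2LSL tumour 1 alone, and 0 of the list were called with sex as a covariate. The lowest sum, with or without these keratins, was that of tumour 1 with SOX2, which held the least Emp2, the least Perp (1042 CPM) and the most Emp1. Of the lymphoid, endothelial and adipocyte lists, none of the 9, 10 and 8 tested genes was called in edgeR, and at an unadjusted p below 0.05 the counts were 1, 2 and 2, while DESeq2 and limma each called 1 endothelial gene and no other. Their summed levels overlapped between the genotypes, at 16.1 to 22.6 and 16.3 to 31.9 CPM for the lymphoid, 202 to 220 and 196 to 230 CPM for the endothelial and 20.4 to 49.1 and 19.3 to 113 CPM for the adipocyte list. The part of cell makeup in the values of Emp1 and Emp2 was not tested.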

How the data were processed

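Bulk tumour RNA of both genotypes, depleted of ribosomal RNA, was sequenced as paired-end reads. The authors ran FastQC 0.11.8, trimmed the reads with Trim Galore, aligned them to GRCm38 with HISAT2 2.1.0 and counted them per gene with featureCounts of Subread 1.6.3. They deposited raw read counts per gene, with no normalisation. Whether counting used the strand or reads with several positions is not given in the sources used here. Total counts were 23565432 to 31152826 per tumour, so depth limits statements on genes with few counts.

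The 7 columns are named by mouse. The study's source data tie 6 to a genotype and sex. The remaining 1 was not used, since its group is not settled, so a comparison designed for 4 and 3 tumours was run on 3 against 3. The members and lists were chosen with earlier results of these data known. Each tumour came from its own mouse.

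Genes that reached 5 reads in 1 tumour or more (24433) were scaled by TMM and fitted with edgeR 4.0.16 (R 4.3.3, quasi-likelihood test, genotype only, Benjamini-Hochberg at 0.05 over all genes). CPM and log2 CPM (prior count 2) were computed from the deposited counts. Symbols, positions and exon lengths came from GENCODE M21, in which 55154 features matched. Python 3.11.15 with Biopython 1.88, SciPy 1.17.1, pandas 2.3.3 and matplotlib 3.10.9 served for the rest. The fits were tested on simulated data. Count ratios have 95% intervals that cover counting error only.

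Named genes were the 4 members, Sox2 and EGFP, per list the called genes (at most 4 per direction) and the 2 most abundant, the nearest 3 tested genes on each side within 250 kb, and the genes most like each member (5 for Emp1, 3 for the others). Trp63, Dcn, Sox10, S100b and the other genes so marked were named after their values were seen, and some genes under the rule are given only as counts. Of the myelin list, 1 gene is counted but not reported here. A planned comparison of the proteins was replaced by their coding sequences.

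The 14 alternatives were DESeq2 1.42.0, limma 3.58.1 (voom with sample weights), DESeq2's size factors, upper-quartile scaling, no filter, filterByExpr, sex as a covariate, removal of the 10 most abundant genes and each of the 6 tumours left out. The length of the longest protein-coding transcript was added after seeing the data.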

Additional observations from a re-analysis of the deposited data

How the results depend on the processing

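The differences of Emp1, Emp2, Emp3 and Pmp22 kept their direction in all 14 alternatives and moved by less than the spread within groups. Genes called higher and lower (585 and 369) were 2098 and 1555 with DESeq2, 1172 and 970 with limma, 1091 and 668 without a filter and 161 and 67 with sex as a covariate, and filterByExpr gave 560 lower. With 1 tumour left out, 12 to 845 were higher and 10 to 730 lower, fewest without Ivl:BRAFV600E tumour 1 and most without Ivl:BRAFV600E-SOX2LSL tumour 1. The calls in the lists moved likewise. The superfamily had 1 call, 4 with DESeq2, 2 without a filter and 0 to 2 with 1 tumour left out. The partners had 3 calls, 9 with DESeq2, 7 with limma, 6 without a filter, 0 with sex as a covariate and 0 to 8 with 1 tumour left out. The myelin list had 1 call, 5 with DESeq2, 2 without a filter, 0 with sex and 0 to 2 with 1 tumour left out. The growth-arrest list had 2 calls, 4 with DESeq2, 0 with sex and 0 to 3 with 1 tumour left out. For sex and for most tumours left out, fewer samples or residual degrees of freedom remain. For the rest the cause was not tested.

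Some log2 fold changes close to 0 changed sign. Erbb3 (-0.03) was 0.13 with limma, 0.043 with sex as a covariate and -0.18 to 0.22 with 1 tumour left out. Kdelr1 (0.07) was -0.035 with upper-quartile scaling. Syngr4 (0.04) was -0.15 with limma, -0.055 with upper-quartile scaling and -0.28 to 0.66 with 1 tumour left out. The Emp1 share per kb without SOX2 was 50.6% with the longest transcript of any kind and 41.8% with the longest coding transcript.

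Depth limits genes such as Tmem182, Kcnj11 and Gm36640, with 0 to 3 counts per tumour without SOX2, while Emp3, the lowest member, had 87 counts or more in every tumour. Tumours 1 to 3 of each genotype share only a number. No paired analysis was possible because the columns are named by mouse and carry no replicate number.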
